A study of Mus musculus with 12 samples.

Results

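The distal part of mouse chromosome 13 was examined gene by gene in embryonic stem cells: the protein-coding genes whose annotated start lies from 75 Mb onwards (GRCm38), ending with Fgf10, which starts at 118669791. That rule used no measured value, but members were chosen with earlier results of these data known. By the rule 195 of 43346 genes in the table were members, and 152 of them had enough counts to be tested. The libraries are bulk RNA-seq of embryonic stem cell lines from 4 mouse strains, with 3 libraries each. B6 is C57BL/6J and D2 is DBA/2J. The congenic strain B6-13D2, labelled B6.D2-(rs30079041-rs51756099)/Bakr, carries D2 alleles in a chromosome 13 segment on a B6 background. Its counterpart D2-13B6, labelled D2.B6-(rs29224292-rs13469455)/Bakr, carries B6 alleles in such a segment on a D2 background. All lines grew in the same medium with 15% serum, leukemia inhibitory factor, the MEK inhibitor PD0325901 at 1 µM and the GSK3 inhibitor CHIR99021 at 3 µM. The segment ends are given only as marker names, whose positions were not used here, and the series text names another distal marker for D2-13B6 than its sample labels do. It is therefore not established here which members lie inside either segment.

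The strains D2, B6-13D2 and D2-13B6 are each represented by libraries of a single labelled line, so line and strain cannot be told apart. B6 replicate 3 carries the name of another line than B6 replicates 1 and 2. The titles of the D2 libraries name another line than their cell line field. The labels call the libraries technical replicates, so p-values measure only the spread between these libraries. In the table the congenic libraries, unlike the parental ones, have names that begin with a digit. If that marks a batch, it cannot be told apart from congenic status.

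A congenic strain carries a chromosome segment of a donor strain on the genome of a recipient strain. A gene inside the segment whose RNA level is set by a nearby variant (in cis) moves with the segment allele on either background. Outside the segment such a gene moves with the background. A gene set by variants elsewhere (in trans) can move with the background or, where those lie in the segment, with the segment allele. As the segment ends are not established here, these classes cannot tell cis from trans. The stretch holds, among others, the adjacent betaine and dimethylglycine enzymes Bhmt, Bhmt2 and Dmgdh, the Naip family of bacterial sensors, the LIF co-receptor Il6st and the matrix genes Vcan and Edil3.

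Library totals ran from 22184196 to 36411799 expected counts, the estimated read numbers the authors deposited. Members together took 0.72% to 0.732% of the counts in B6, 0.7% to 0.72% in D2 and 0.717% to 0.72% in B6-13D2, and 0.655% to 0.659% in D2-13B6, the lowest range of the 4 groups. Stem cell markers were expressed in every library, all 8 of 8 listed above 1 CPM (counts scaled to library size, with TMM factors). Markers of another cell type differed between the groups as well. The sum of 8 fibroblast markers, none of them at 0 throughout, was 9356 to 10160 CPM in B6, 14130 to 16920 in D2, 3085 to 3173 in B6-13D2 and 7713 to 8038 in D2-13B6, with no overlap between groups. Summed stem cell markers were 4156 to 4337, 2892 to 2926, 4732 to 4876 and 3444 to 3456 CPM in the same order of groups. Primitive endoderm markers summed to 31.8 to 32.6, 40.8 to 43.4, 14.4 to 14.8 and 35.9 to 37.9 CPM, with 5 of 6 above 1 CPM in at least 1 library. That sum was mostly Dab2 (means of 21.7, 29.7, 7.92 and 21.9 CPM) and Pdgfra, which is also among the fibroblast markers. Dab2 and Gata6 had the order of the sum. Gata4 (3.29, 1.54, 2.59 and 2.48 CPM) was lowest in D2, and Sox17 (0.374, 0.524, 0.52 and 1.54 CPM) was highest in D2-13B6. Trophoblast markers summed to 61.2 to 71.4, 50.4 to 52.5, 88.2 to 90.4 and 39.0 to 41.4 CPM, with 4 of 5 above 1 CPM in at least 1 library. The trophoblast sum was mostly Tfap2c, with means of 41.0, 31.6, 66.0 and 11.8 CPM, while Cdx2 (1.22, 3.55, 0.898 and 4.49 CPM) and Krt8 (11.7, 10.6, 7.83 and 19.7 CPM) were highest in D2-13B6 and lowest in B6-13D2. In bulk RNA, fewer cells of a type and less RNA per cell cannot be told apart, and the growth protocol in the labels names no feeder layer.

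More members moved with the genetic background (61), or alike in both congenic lines (54), than with the allele of the segment (12), and the same ranking of these classes against the segment class held over all genes tested (29.1%, 32.2% and 7.33%). The segment allele was read in 2 contrasts that share no library. They are B6-13D2 minus B6 on the B6 background and D2 minus D2-13B6 on the D2 background. A positive log2 fold change means a higher level in the line with the D2 segment in both. Wording such as higher or lower with the D2 allele refers to these lines, as a member may lie outside the segment. A member was said to follow the segment allele when edgeR called it in both contrasts (adjusted p below 0.05) with the same sign. It was said to follow the background when D2 minus B6-13D2 and D2-13B6 minus B6 were both called with the same sign. A further class was called in both segment contrasts with opposite signs, which is the same as both congenic lines moving the same way against their parent. A member can be in the background class and in either of the other classes.

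On the B6 background 98 of 152 members differed between B6-13D2 and B6, 31 higher and 67 lower in B6-13D2, against 58.3% of all 17148 genes tested (25.4% higher and 32.9% lower). With median-ratio scaling in place of TMM the split was 45 higher and 60 lower. On the D2 background 93 members differed between D2 and D2-13B6, 73 higher and 20 lower in D2, against 57.3% of all genes (29.7% higher and 27.6% lower). The median log2 fold change of the members was -0.142 in the first contrast and 0.143 in the second, where all genes had -0.035 and 0. With median-ratio scaling the first was -0.079 and that of all genes 0.027. Called changes of at least 2-fold numbered 23 in the first contrast, against 14.5% of all genes, and 14 in the second, against 8.96%. Both member medians lie on the side of lower levels in the congenic line than in its parent. D2 and B6 themselves differed at 99 members, 36 higher and 63 lower in D2, against 60.0% of all genes (29.8% higher and 30.3% lower). With median-ratio scaling the split was 43 higher and 51 lower. Over all protein-coding genes tested, 62.6%, 61.0% and 63.5% were called in these 3 contrasts, close to the 64.5%, 61.2% and 65.1% of the members. The effect of the segment allele itself differed between the backgrounds for 97 members, 28 with a positive and 69 with a negative difference, against 64.5% of all genes (31.1% and 33.4%).

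Only 12 of 152 members (7.89%) followed the segment allele, close to the 7.33% of all genes tested. Of the 12, 6 were higher with the D2 allele (3.95% of members tested, against 3.02% of all genes) and 6 lower.

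The background contrasts called more members. D2 and B6-13D2, which share D2 alleles in the segment, differed at 126 members, 64 higher and 62 lower in D2, against 74.6% of all genes (38.0% and 36.7%). D2-13B6 and B6 differed at 112 members, 19 higher and 93 lower in D2-13B6, against 59.0% of all genes (24.5% and 34.6%). By the rule of like signs in both, 61 members (40.1%) followed the background, where 29.1% of all genes did. Of these 61, 52 were lower on the D2 background (34.2% of members tested, against 17.7% of all genes) and 9 higher (5.92%, against 11.4%). Opposite signs were called for 54 members (35.5%), some of them also in the background class, against 32.2% of all genes. Both congenic lines were lower for 44 of them (28.9% of members tested, against 19.8% of all genes) and higher for 10 (6.58%, against 12.4%). Over all protein-coding genes tested, the shares following the segment allele, following the background and with opposite signs were 7.84%, 30.5% and 35.5%, the last equal to that of the members. Among the 175 tested protein-coding genes that start between 50 and 75 Mb on the same chromosome, 23 (13.1%) followed the segment allele and 46 (26.3%) the background. On other autosomes those shares were 7.77% and 30.6% of 13845 genes. The differences between these shares were not tested.

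**Figure D1:**
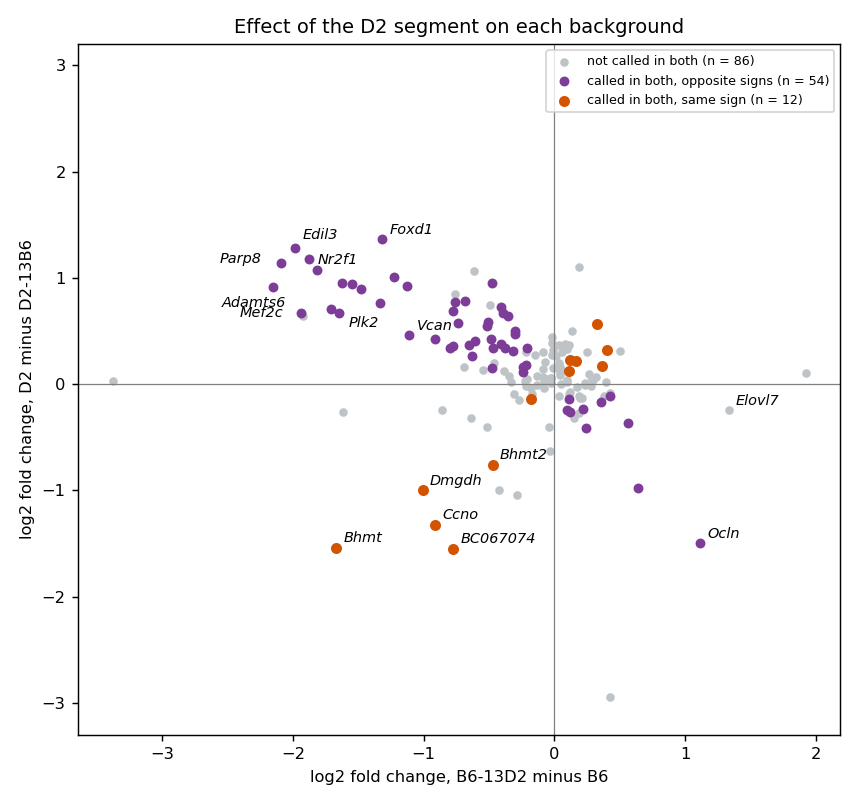
Log2 fold change of each of the 152 tested members on the D2 background (D2 minus D2-13B6, vertical) against that on the B6 background (B6-13D2 minus B6, horizontal), 1 point a gene. Orange points (12) were called in both with the same sign, purple points (54) in both with opposite signs, and grey points (86) were not called in both. Most purple points lie at the upper left, where both congenic lines are below their parent.

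Along the chromosome, members that followed the segment allele lay in 4 of the 9 windows of 5 Mb (the last window is 4 Mb long). The windows starting at 90, 95, 100 and 110 Mb held 3 each, among 26, 30, 32 and 20 members tested. Those are 11.5%, 10%, 9.38% and 15%, against 7.33% of all genes tested. The windows starting at 75, 80 and 85 Mb held none among 12, 8 and 6 members tested, while 5, 5 and 3 of their members had opposite signs. The background class was most common in the windows starting at 95, 100 and 110 Mb, with 15 of 30, 15 of 32 and 11 of 20 members. With the stretch divided at 95 Mb, a point chosen after the values were seen, 14 of 52 members followed the background before it and 47 of 100 after it. Members with opposite signs were 23 of 52 and 31 of 100. Over all genes tested, 29.1% followed the background and 32.2% had opposite signs. The windows hold few members, and differences by position were not tested.

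**Figure D2:**
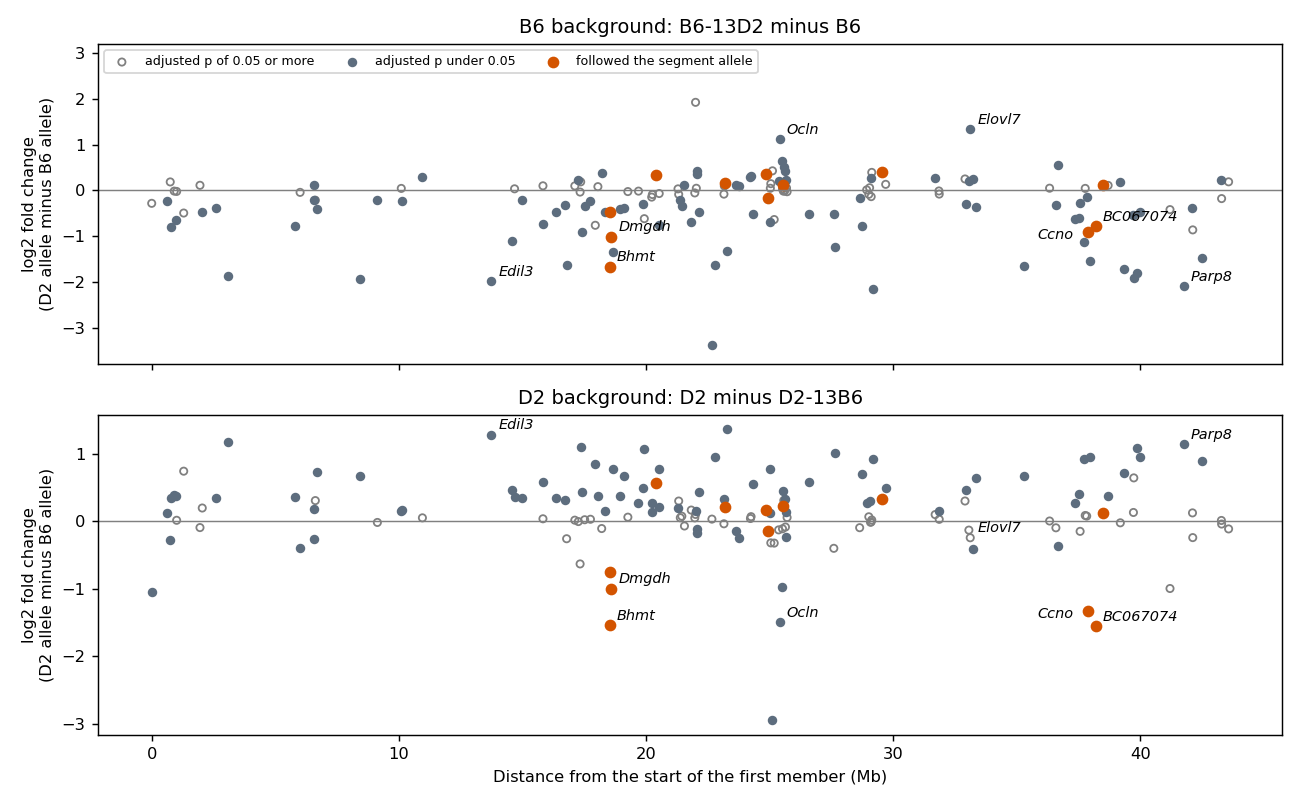
Log2 fold change of each tested member in the 2 segment contrasts (upper and lower panel) by the distance of its start from the beginning of the stretch, in Mb. Dmgdh, Bhmt, BC067074 and Ccno are below 0 in both panels, while Edil3 and Parp8 are below 0 in the upper panel and above 0 in the lower.

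**Figure D3:**
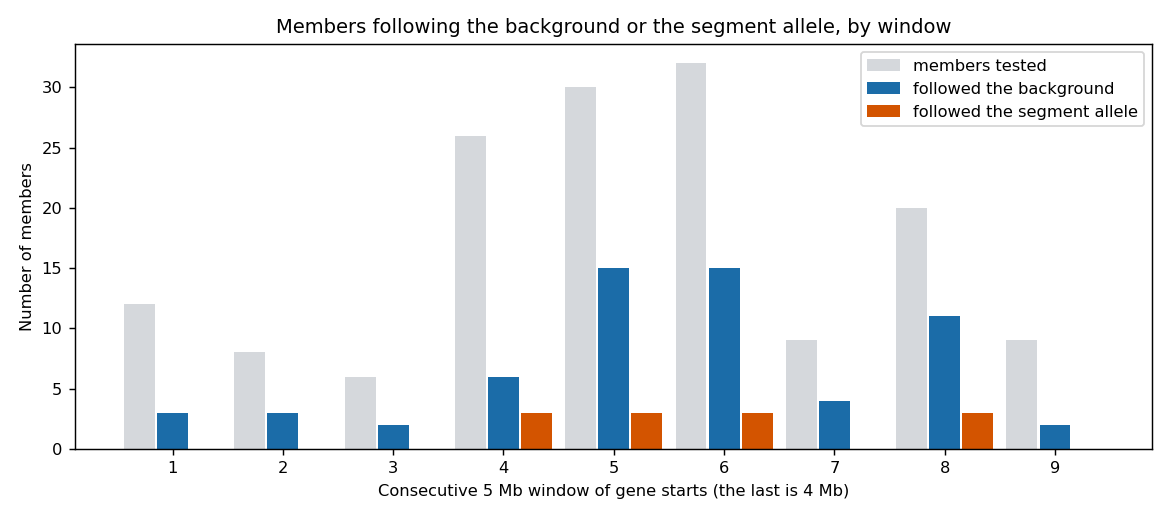
Number of members tested (grey), following the background (blue) and following the segment allele (orange) in 9 consecutive windows of gene starts. Windows 4, 5, 6 and 8 hold all 12 orange members, 3 each.

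The neighbours Dmgdh, Bhmt2 and Bhmt followed the segment allele and were all lower with the D2 allele. Bhmt encodes betaine-homocysteine methyltransferase, which remethylates homocysteine to methionine and releases dimethylglycine. Dmgdh encodes the mitochondrial dehydrogenase that oxidises that dimethylglycine, and Bhmt2 encodes a related methyltransferase that uses S-methylmethionine. Dmgdh (chr13:93674433-93752833, plus strand) and Bhmt2 (chr13:93655720-93674302, minus strand) stand head to head with annotated starts 131 bp apart, and Bhmt (chr13:93616675-93637961, minus strand) lies next to Bhmt2. Their promoters are shown because these neighbours moved together. Each runs from 250 bases before to 50 after the RefSeq start (GRCm38.p6), with matches to GGGCGG or CCAAT on either strand in capitals. They are reference sequence of the C57BL/6J assembly. The D2 sequence was not used here.

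Dmgdh, chr13:93674186-93674485, plus strand: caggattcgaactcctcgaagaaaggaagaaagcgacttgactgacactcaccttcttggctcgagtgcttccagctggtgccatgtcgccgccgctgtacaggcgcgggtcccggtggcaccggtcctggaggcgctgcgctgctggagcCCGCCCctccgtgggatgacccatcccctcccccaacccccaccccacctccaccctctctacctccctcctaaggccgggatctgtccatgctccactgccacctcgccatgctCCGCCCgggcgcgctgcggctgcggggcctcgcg
Bhmt2, chr13:93674253-93674552, minus strand: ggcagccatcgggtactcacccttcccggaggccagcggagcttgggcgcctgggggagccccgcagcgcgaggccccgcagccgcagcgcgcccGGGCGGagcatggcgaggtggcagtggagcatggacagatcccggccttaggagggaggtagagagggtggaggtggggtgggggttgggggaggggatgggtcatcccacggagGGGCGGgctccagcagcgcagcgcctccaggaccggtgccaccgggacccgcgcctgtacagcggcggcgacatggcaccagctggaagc
Bhmt, chr13:93637709-93638008, minus strand: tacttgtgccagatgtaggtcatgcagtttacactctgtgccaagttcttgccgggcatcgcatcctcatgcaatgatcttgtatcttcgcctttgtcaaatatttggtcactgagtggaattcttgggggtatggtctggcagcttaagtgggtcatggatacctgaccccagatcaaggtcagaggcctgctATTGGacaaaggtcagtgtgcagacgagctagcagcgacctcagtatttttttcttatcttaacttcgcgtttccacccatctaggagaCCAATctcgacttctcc

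The windows of Dmgdh and Bhmt2 share 233 bp, read from opposite strands. They hold 25 and 26 CpG dinucleotides, with those of the shared part counted in both. The 2 matches to GGGCGG are the same 2 sites in both windows. That motif was found in 35.7% of 32851 RefSeq promoter windows of this length. The window of Bhmt holds 8 CpG, near the median of 7 over all windows, and 2 matches to CCAAT, which 37.4% of windows hold. None of the 3 windows holds TATAAA or CACGTG, which were found in 13.6% and 7.15% of all windows. The motif searches cover both strands, and a match describes letters only.

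Dmgdh followed the segment by about the same amount on each background. Its level was 7.64, 6.71 and 8.96 CPM in B6 and 7.15, 7.17 and 6.67 in D2-13B6, against 3.37, 3.53 and 3.60 in D2 and 4.02, 3.93 and 3.62 in B6-13D2. All 6 libraries with B6 segment alleles were thus above all 6 with D2 alleles. The log2 fold change for the D2 allele was -1.01 ± 0.11 (SE) on the B6 background and -1.0 ± 0.11 on the D2 background (edgeR adjusted p 4.66e-07 and 5.57e-07). The contrasts between backgrounds with like segment alleles gave -0.14 ± 0.12 for D2 minus B6-13D2 and -0.15 ± 0.10 for D2-13B6 minus B6, and neither was called (edgeR adjusted p 0.312 and 0.224). The difference of the allele effect between backgrounds was -0.01 ± 0.16.

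Bhmt had the largest change of the class on the B6 background, and it changed with the background too. It stood at 5.36, 5.04 and 6.39 CPM in B6, at 1.52, 1.68 and 2.08 in B6-13D2, at 2.52, 1.91 and 1.94 in D2-13B6 and at 0.916, 0.751 and 0.501 in D2. B6 was above and D2 below every congenic library, and the ranges of the congenic lines overlapped. The log2 fold change was -1.67 ± 0.18 on the B6 background and -1.54 ± 0.23 on the D2 background (edgeR adjusted p 3.6e-07 and 1.4e-05). The background contrasts were called too, with -1.26 ± 0.24 for D2 minus B6-13D2 and -1.39 ± 0.17 for D2-13B6 minus B6. The mean of B6 was 7.74 times that of D2.

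Bhmt2 was weaker and less stable. Its levels were 2.55, 2.81 and 2.87 CPM in B6, 1.08, 1.25 and 1.5 in D2, 2.15, 2.25 and 1.51 in B6-13D2 and 2.36, 1.74 and 2.38 in D2-13B6. The congenic ranges overlapped, with B6 above and D2 below both. The log2 fold changes were -0.47 ± 0.19 and -0.76 ± 0.21 (edgeR adjusted p 0.0447 and 0.00429), and the gene left the class in 13 of 19 alternative analyses. Counts of these 3 genes were not whole in every library, so the authors' estimation had divided reads with other genes. Of the 50-base stretches in their transcripts, 12.7% in Bhmt, 6.29% in Bhmt2 and 5.74% in Dmgdh also occur in transcripts of other genes.

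BC067074, which is at chr13:113293159-113379711, fell with the D2 allele on both backgrounds by unequal amounts. It measured 59.3, 52.5 and 52.0 CPM in B6, 31.3, 31.8 and 32.6 in B6-13D2, 36.8, 32.8 and 34.5 in D2-13B6 and 11.1, 11.8 and 12.7 in D2. The 4 groups did not overlap, and the congenic lines lay between the parents. The log2 fold change was -0.78 ± 0.06 on the B6 background and -1.55 ± 0.07 on the D2 background (edgeR adjusted p 2.84e-09 and 3.16e-12). That difference of 0.77 ± 0.09 was called too (edgeR adjusted p 6.72e-07). Its counts were whole in every library, and none of its 50-base stretches was shared with another gene.

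Ccno, which encodes cyclin O, known for the formation of multiciliated cells, was lower with the D2 allele and higher on the D2 background. It was measured at 1.01, 0.797 and 0.986 CPM in B6 and at 0.415, 0.570 and 0.491 in B6-13D2. On the D2 background it was at 4.52, 4.59 and 5.21 CPM in D2-13B6 and at 2.79, 1.45 and 1.55 in D2. Within each background the line with B6 alleles was the higher, with no overlap. The log2 fold changes were -0.91 ± 0.32 and -1.32 ± 0.20 (edgeR adjusted p 0.0196 and 2.06e-05). Without B6 replicate 1, B6 replicate 3 or B6-13D2 replicate 1 it left the class. Its counts were low.

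**Figure D4:**
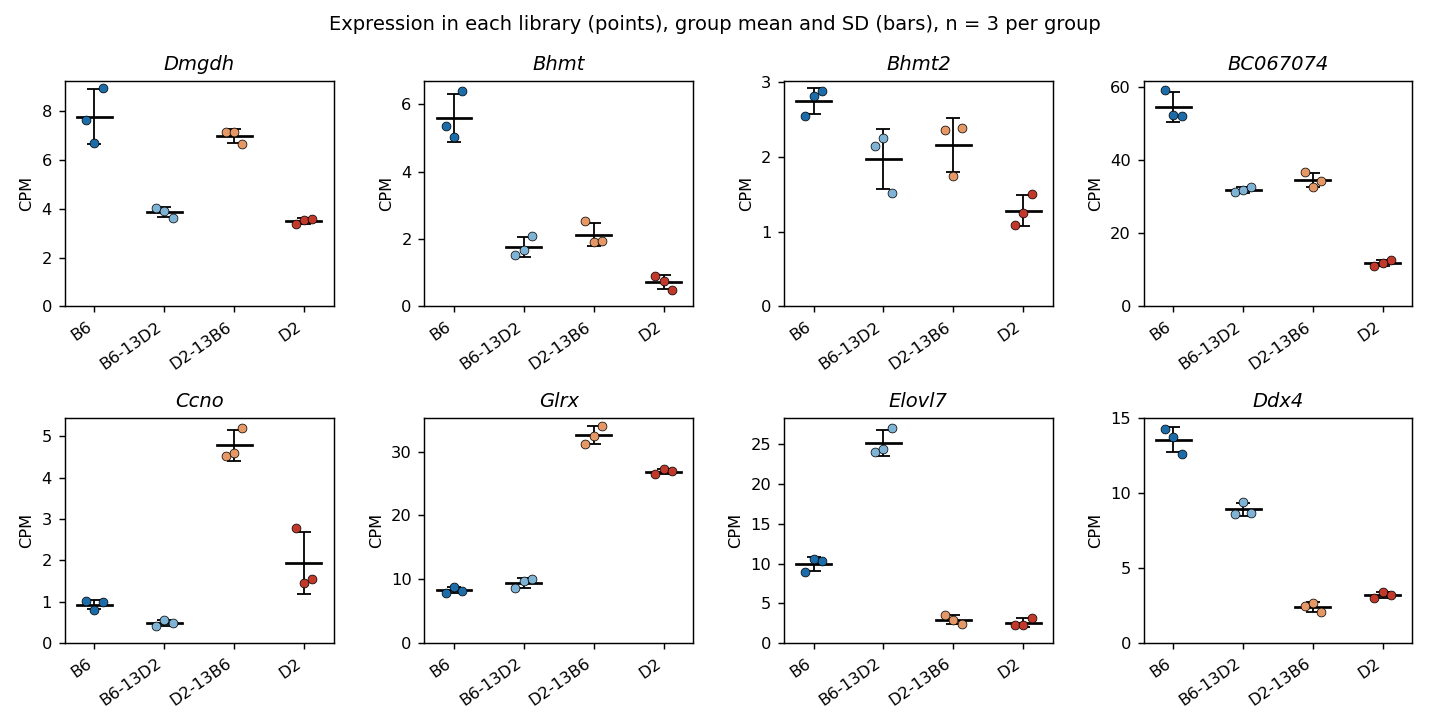
CPM of named members in each of the 12 libraries, 1 point a library, with the group mean and SD as bars, n = 3. For Dmgdh the B6 and D2-13B6 libraries lie together above the D2 and B6-13D2 libraries, while Glrx and Ddx4 divide by background.

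The other 7 members of the class changed less, by at most 0.56 in absolute log2 fold change on either background. The receptor F2rl1, a target of trypsin-like proteases, was higher with the D2 allele by 0.33 ± 0.05 on the B6 background and 0.56 ± 0.05 on the D2 background (edgeR adjusted p 2e-05 and 9.77e-08). Its 3 libraries ranged from 58.1 to 61.2 CPM in B6-13D2 and from 44.3 to 50.1 in B6, and from 31.7 to 34.9 in D2 against 22.3 to 23.2 in D2-13B6. The spliceosomal cyclophilin gene Cwc27 was higher by 0.40 ± 0.06 and 0.32 ± 0.06. It overlaps Srek1ip1 and its counts were not whole. Btf3, a subunit of the nascent chain complex at the ribosome, was higher by 0.17 and 0.22, the leucine catabolism gene Mccc2 by 0.36 and 0.17, the nuclear adenylate kinase gene Ak6 by 0.12 and 0.23, and the sorting nexin gene Snx18 by 0.11 and 0.12. Bdp1, a subunit of the RNA polymerase III initiation factor, was lower by -0.18 and -0.14. Like those of Cwc27, the counts of Btf3 and Ak6 were not whole, and Ak6 overlaps Rad17 and Taf9. Of the class of 12, 10 also followed the background, which is 6.58% of members tested, against 4.56% of all genes. The exceptions were Dmgdh and Bhmt2. Across 19 alternative analyses, which leave out the limits to 2-fold changes and to whole counts, 7 members kept the class (Bhmt, Dmgdh, BC067074, F2rl1, Btf3, Ak6 and Cwc27).

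Members that followed the background included large differences in both directions. Glrx, the gene of the cytosolic glutaredoxin, was measured at 7.91, 8.81 and 8.19 CPM in B6 and 8.62, 9.66 and 10.1 in B6-13D2, against 26.4, 27.2 and 26.9 in D2 and 31.2, 32.5 and 34.0 in D2-13B6. Every library of the D2 background was above every library of the B6 background. D2 minus B6-13D2 was 1.51 ± 0.07 and D2-13B6 minus B6 was 1.97 ± 0.07 (edgeR adjusted p 3.71e-13 and 6.31e-14). Glrx lies at chr13:75839868-75850154, near the proximal end of the stretch.

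Ddx4, which encodes the germ cell RNA helicase Vasa, went the other way. Its levels were 14.3, 13.8 and 12.7 CPM in B6 and 8.65, 9.39 and 8.72 in B6-13D2, but 3.00, 3.42 and 3.19 in D2 and 2.49, 2.68 and 2.08 in D2-13B6. The B6 background was higher in every library, and each congenic line was below its parent. The background contrasts gave -1.47 ± 0.11 and -2.48 ± 0.10 (edgeR adjusted p 5.34e-10 and 1.26e-12).

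Elovl7, an elongase of long-chain fatty acids, followed the background and was highest in B6-13D2. It was at 9.01, 10.6 and 10.4 CPM in B6 and at 24.1, 24.4 and 27.1 in B6-13D2. In D2 it was at 2.29, 2.23 and 3.19 CPM, and in D2-13B6 at 3.59, 2.85 and 2.42, ranges that overlapped. The segment contrast was called on the B6 background (1.33 ± 0.10, edgeR adjusted p 3.64e-09) and not on the D2 background (-0.24 ± 0.16, edgeR adjusted p 0.213). The difference between those effects was 1.58 ± 0.19 (edgeR adjusted p 1.11e-06).

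Several members with housekeeping roles followed the background with smaller steps. The exosome helicase gene Mtrex was at 152 to 157 CPM in B6 and 152 to 165 in B6-13D2, and at 90.1 to 101 in D2 and 90.2 to 93.0 in D2-13B6. Its background contrasts were -0.71 ± 0.04 and -0.75 ± 0.04, and neither segment contrast was called (edgeR adjusted p 0.392 and 0.106). Ccnb1, the gene of mitotic cyclin B1, had -0.54 ± 0.03 and -0.61 ± 0.03. The growth factor gene Fgf10, the last tested member by position, was lower on the D2 background, with -0.85 ± 0.10 and -0.55 ± 0.10.

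The gene just past the distal end of the stretch, Nnt (chr13:119335448-119408997), is known for a deletion carried by C57BL/6J. Nnt encodes the mitochondrial nicotinamide nucleotide transhydrogenase. Its level was 44.7, 44.3 and 43.3 CPM in B6 and 53.4, 47.9 and 50.5 in B6-13D2, against 22.9, 24.7 and 26.04 in D2 and 21.6, 21.6 and 21.3 in D2-13B6. It divided by background. It was also higher in B6-13D2 than in B6 by 0.20 ± 0.05 and in D2 than in D2-13B6 by 0.19 ± 0.06 (edgeR adjusted p 0.00238 and 0.0076). It thus met the rule for the segment allele too, though it is not established here that Nnt lies inside either segment. Neither segment contrast of Fgf10 was called (edgeR adjusted p 0.104 and 0.369). Gene totals do not resolve the deleted exons. At the proximal end the last gene outside was Cast (94.5, 109, 54.6 and 80.4 CPM on average in B6, D2, B6-13D2 and D2-13B6), and the first tested inside was Pcsk1 (1.30, 1.11, 1.07 and 2.25 CPM).

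Of the members called with opposite signs, 7 changed by at least 2-fold on both backgrounds: Edil3, Parp8, Nr2f1, Foxd1, Mast4 and Itga1, which were lower in both congenic lines, and Ocln, which was higher. Edil3, an integrin-binding matrix protein gene, was at 73.8, 79.5 and 72.9 CPM in B6 and at 19.8, 19.1 and 18.3 in B6-13D2. In D2 it was at 114, 112 and 110 CPM and in D2-13B6 at 45.8, 46.6 and 45.8. The 4 groups did not overlap, and D2 was highest and B6-13D2 lowest. The log2 fold change was -1.98 ± 0.05 for B6-13D2 minus B6 and 1.28 ± 0.04 for D2 minus D2-13B6 (edgeR adjusted p 4.64e-16 and 7.84e-14).

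Parp8, Nr2f1, Foxd1, Adamts6, Plk2 and Fst had the same order of group means. Parp8, a member of the ADP-ribosyltransferase family, had log2 fold changes of -2.10 and 1.14, the orphan nuclear receptor gene Nr2f1 had -1.88 and 1.18, and the forkhead factor gene Foxd1 had -1.32 and 1.36. The metalloprotease gene Adamts6 had -2.16 and 0.91, the polo-like kinase gene Plk2 had -1.65 and 0.67, and Fst, the gene of the activin antagonist follistatin, had -1.71 and 0.71. Vcan, which encodes the matrix proteoglycan versican, fell by 1.11 in B6-13D2 against B6 and was 0.46 higher in D2 than in D2-13B6. In B6 and D2-13B6 its means were 146 and 147 CPM, so it had D2 highest and B6-13D2 lowest without a called difference between the other two (edgeR adjusted p 0.782). Il6st, the signalling co-receptor of leukemia inhibitory factor, also had D2 highest and B6-13D2 lowest, with overlapping ranges and no called difference between B6 and D2-13B6 (edgeR adjusted p 0.104). It was at 130 to 136 CPM in B6, 83.6 to 86.9 in B6-13D2, 166 to 168 in D2 and 136 to 143 in D2-13B6, with -0.63 ± 0.03 and 0.26 ± 0.03.

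The summed fibroblast markers had the order D2, B6, D2-13B6, B6-13D2 from high to low. That order was carried by Col1a1, Col1a2 and Thy1, 3 of the 8 markers, while the other 5 (Dcn, Col3a1, Postn, Pdgfra and Lum) were higher in D2-13B6 than in B6. In a comparison chosen after the values were seen, 28 of the 44 members that were lower in both congenic lines (63.6%) had that same order of group means, and so did 63.6% of the 3403 genes of that class in the whole table. Of all 152 members 31 had it (20.4%, against 14.8% of all genes). The summed stem cell markers had the order B6-13D2, B6, D2-13B6, D2, which 15 members had (9.87%, against 12% of all genes). Among members that followed the background and were lower on D2, 13 of 52 had it (25%, against 39.3% of such genes). The part of either set of markers in these differences was not tested.

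Of the 10 members that were higher in both congenic lines, the tight junction genes Ocln and Marveld2 and the kinase gene Map3k1 are examples. Ocln, which encodes occludin, was at 3.82, 4.79 and 3.60 CPM in B6 and 2.25, 3.81 and 3.00 in D2, against 8.31, 9.70 and 8.49 in B6-13D2 and 9.10, 8.25 and 8.88 in D2-13B6. Every congenic library was above every parental one. The contrasts were 1.12 ± 0.14 and -1.5 ± 0.14 (edgeR adjusted p 2.41e-06 and 7.1e-08). Marveld2, the tricellulin gene, had 0.64 ± 0.17 and -0.97 ± 0.17, and Map3k1 had 0.56 ± 0.05 and -0.36 ± 0.05.

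The counts by role in the segment contrasts are to be read beside all genes tested, of which 25.4% were higher and 32.9% lower in B6-13D2 than in B6, and 29.7% higher and 27.6% lower in D2 than in D2-13B6. Of 13 signal transduction genes tested, 8 were called lower in both congenic lines, where 19.8% of all genes were. In the single contrasts 9 fell and 2 rose in B6-13D2 against B6, and 11 were higher and 1 lower in D2 than in D2-13B6, with medians of -0.618 and 0.586. Besides Il6st this list holds the thrombin receptor gene F2r (-0.76 and 0.77), the scaffold gene Erbin (-0.78 and 0.69) and the Ras regulator gene Rasa1 (-0.24 and 0.16). Of 8 developmental regulators and secreted factors tested, 6 fell in B6-13D2 and none rose, and 6 were higher in D2 than in D2-13B6. Of 8 matrix and adhesion genes tested, 6 fell and 2 rose in B6-13D2, the latter being Ocln and Marveld2, and 4 were higher and 2 lower in D2 than in D2-13B6.

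Among genes of RNA processing, mitochondria, DNA repair and the cell cycle, those that followed the background outnumbered those with opposite signs. Of 16 RNA processing and translation genes 11 followed it. In the segment contrasts 2 of the 16 rose and 5 fell in B6-13D2, and 10 were higher and 1 lower in D2, with medians of 0.015 and 0.155. Of 11 mitochondrial genes 8 followed the background. In B6-13D2 against B6, 8 of the 11 rose and 2 fell. Those that rose include Mrps27, a mitochondrial ribosome subunit gene (0.32 ± 0.05), and Gfm2, a factor of mitochondrial ribosome recycling (0.43 ± 0.04). On the D2 background 1 was higher and 2 lower in D2. DNA repair and nucleotide supply genes followed the background in 5 of 9, and none had opposite signs, with 4 higher and 1 lower in B6-13D2 and 3 higher in D2.

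Of 10 cell cycle genes tested, 6 followed the background and 4 had opposite signs. Cenph and Cetn3 were in both classes, Cdk7 and Kif2a in neither. In B6-13D2 2 of them rose and 3 fell, and in D2 5 were higher and 3 lower than in D2-13B6. Of 14 genes of lipid, lysosome and transport functions, 6 followed the background, 6 had opposite signs and none followed the segment allele. In B6-13D2 5 of the 14 rose and 7 fell, and in D2 4 were higher and 2 lower. The 3 tested Naip genes, sensors of bacterial proteins whose near-identical copies make their counts uncertain, gave no call on the B6 background and 1 on the D2 background. The class counts are to be read beside 29.1% of all genes for the background class and 32.2% for the opposite class.

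**Figure D5:**
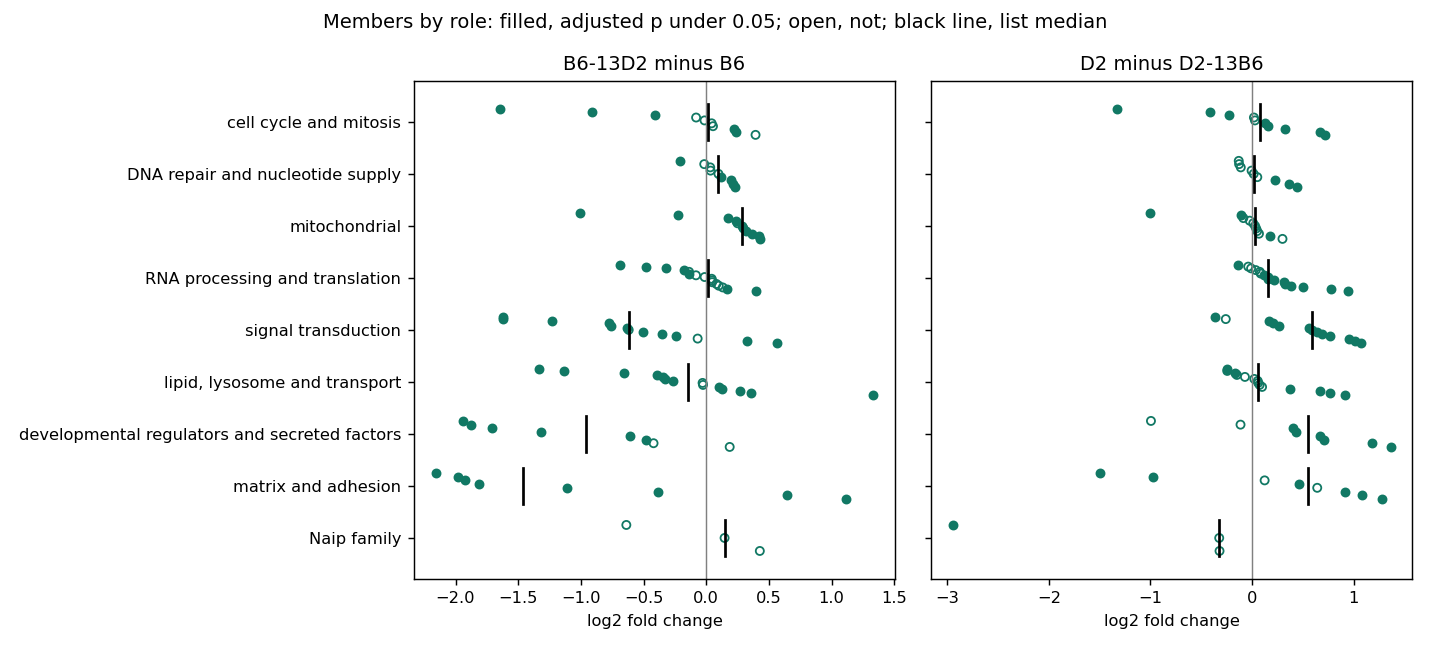
Log2 fold changes of the members of each role list in the 2 segment contrasts, 1 point a gene. Signal transduction, developmental and matrix genes lie mostly below 0 on the B6 background and above 0 on the D2 background. Mitochondrial genes lie mostly above 0 on the B6 background. The lists were chosen with earlier results of these data known.

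The parental lines differed by at least 2-fold at 11 members, against 11.3% of all genes tested. Bhmt, Bhmt2, Dmgdh, BC067074, Elovl7, Ddx4 and Gm17509 were higher in B6, and Glrx, Ccno, Cmya5 and Naip2 were higher in D2. The mean of BC067074 was 4.61-fold higher in B6 than in D2, that of Ddx4 4.24-fold and that of Elovl7 3.89-fold, and Glrx was 3.23-fold higher in D2. Of the 11, Bhmt, Bhmt2, Dmgdh, BC067074 and Ccno followed the segment allele.

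The 43 members that were not tested had at most 17 counts in any library, and 5 of them had 0 in every library. Among the tested members, 113 had whole counts in every library and 38 overlap another protein-coding gene. For those 38, reads of overlapping genes cannot be told apart where the counting did not use strand, which is not given in the sources used here.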

How the data were processed

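RNA-seq of 12 libraries, 3 for each of 4 strains, was analysed. The authors deposited expected counts per gene, the estimated reads of an allele-aware quantification (EMASE, by the deposited table's title). The submitters' processing notes name Bowtie 1.0.0, edgeR 3.34.1 and the build mm10, without their roles. Of all values 88.1% were whole (tolerance 1e-06), and the rest were rounded before testing. Gene IDs were matched to GENCODE M21 (42462 matched, 884 not).

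In edgeR 4.0.16 (R 4.3.3), genes were filtered with filterByExpr at a minimum count of 10, scaled with TMM and fitted by quasi-likelihood with 4 group means over all 12 libraries. P-values were adjusted by Benjamini-Hochberg over all 17148 genes tested, with a threshold of 0.05. The ± values of fold changes are standard errors. CPM used the scaled library sizes. Alternatives were DESeq2 1.42.0, median-ratio size factors, other filters, whole counts only, a replicate block, other sample sets and leaving out each library. The procedure was tested on simulated data. The chi-square between replicates found no library deposited more than once.

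Members and lists were chosen with earlier results of these data known. Genes were named by rule among members averaging 1 or more in log2 CPM: the strongest of each class, the extremes of each segment contrast, the most expressed of each role list, Il6st, the genes at both ends and Nnt. The Naip genes fall below that level. Some genes that the rule names are not reported here. Others were named after their values were seen.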

Additional observations from a re-analysis of the deposited data

Results flagged for a closer look

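For 30 named members, Naip5 with its low level among them, the effect of the segment allele differed between the B6 and the D2 background. Each was called singly by edgeR's test of the difference itself (B6-13D2 minus B6, less D2 minus D2-13B6). The members were not tested as a whole. This quantity equals the congenic lines minus the parental lines, and 97 of 152 members were called (63.8%, against 64.5% of all genes and 68.4% of protein-coding genes tested). Groups of 3 libraries were not tested for single libraries that stand apart.

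A negative difference means that the changes of the congenic lines against their parents sum to a negative value, though either line alone may be higher, as B6-13D2 was for F2rl1. The log2 values of -1 or below were Edil3 -3.26, Parp8 -3.24, Adamts6 -3.07, Nr2f1 -3.06, Foxd1 -2.68, Fst -2.42, Plk2 -2.32, Vcan -1.57, F2r -1.53, Erbin -1.47 and Ddx4 -1.01. Smaller negative differences were Enc1 -0.91, Il6st -0.89, Emb -0.51, Rasa1 -0.40, Cdk7 -0.34, Polk -0.26 and F2rl1 -0.23.

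Positive differences of at least 0.5 were Naip5 3.37, Ocln 2.61, Elovl7 1.58, Map3k1 0.92, BC067074 0.77 and Gfm2 0.54. The remaining positive differences were Glrx 0.46, Tnpo1 0.34, Mrps27 0.25, Cox7c 0.24, Mrps30 0.22 and Ipo11 0.17. Among the members that followed the segment allele, BC067074 and F2rl1 are thus the named genes whose effect size depended on the background.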

How the results depend on the processing

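The member medians of both segment contrasts, and the called fold changes of named genes, kept their sign in the alternatives run. Of the latter values, 4483 kept their call and 112 lost it, while fold changes that were not called were not recomputed. With calls limited to changes of 2-fold or more (log2 of 1), 23 members were called in B6-13D2 against B6, 14 in D2 against D2-13B6, 11 in D2 against B6 and 37 for the difference of the segment effect, with 1 member following the segment allele (Bhmt) and 6 the background. Among members with whole counts in every library, 6 followed the segment allele, and the medians were -0.215 and 0.177. The median on the B6 background was -0.079 with DESeq2 and -0.079 with median-ratio size factors, and the median on the D2 background was 0.11 with no filter and 0.191 with a mean of at least 1 CPM. The near-even split of members called in D2 against B6-13D2, 64 higher and 62 lower, became 59 and 62 with DESeq2, 63 and 63 with median-ratio scaling, 61 and 63 with no filter, 56 and 62 with a mean of at least 1 CPM, and 59 and 62 with only the compared libraries fitted. It turned in some runs that left out a library, such as 59 and 61 without B6-13D2 replicate 2. Of the members called in B6-13D2 against B6, 31.6% were higher, against 42.3% with DESeq2 and 42.9% with median-ratio scaling.

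With single libraries left out, 87 to 101 members were called in B6-13D2 against B6, 85 to 96 in D2 against D2-13B6, 90 to 102 in D2 against B6 and 92 to 99 for the difference. Between 9 and 13 followed the segment allele and 58 to 62 the background, with medians of -0.15 to -0.111 and 0.133 to 0.161. Ccno left the segment class without B6 replicate 1, B6 replicate 3 or B6-13D2 replicate 1, and Bdp1, Mccc2 and Bhmt2 left it without D2-13B6 replicate 1. Mccc2 also left it without D2-13B6 replicate 2 or any of the D2 replicates, Bdp1 without D2 replicate 2, and Bhmt2 without any of the B6 replicates, B6-13D2 replicate 1 or 3, or D2-13B6 replicate 3. Libraries that share a replicate number did not deviate together: the correlation of their deviations ran from -0.149 to 0.087 over 18 pairs, and 5 of 12 libraries correlated best with their own number. The replicate block gave 99, 92, 98 and 94 calls. It put 12 and 60 members in the segment and background classes, against 12 and 61 without it, with 11 of the 12 shared. Members with few counts, such as Ccno and Naip5, are limited by counting error. Library, line and strain cannot be told apart.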

Other observations

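Naip5, which encodes a sensor of bacterial flagellin in the NLRC4 inflammasome, was highest in every D2-13B6 library. It was at 2.08, 2.16 and 2.25 CPM in D2-13B6, and at most 0.375 CPM in any library of B6, D2 and B6-13D2. D2 minus D2-13B6 was -2.94 ± 0.44 (edgeR adjusted p 1.61e-05), while B6-13D2 minus B6 was 0.43 ± 0.87 and was not called (edgeR adjusted p 0.697). The gene was chosen after its values were seen, belongs to a family of near-identical copies, and had estimated counts that were not whole.

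Pelo, a ribosome rescue factor gene that lies within Itga1, and Cetn3, which encodes a centrin of the centriole, were lowest in D2-13B6. They were chosen after their values were seen. Pelo was at 24.9 to 25.3 CPM in B6, 18.4 to 20.1 in D2, 17.7 to 18.2 in B6-13D2 and 9.59 to 10.3 in D2-13B6. Cetn3 was at 36.1 to 40.9, 23.6 to 28.4, 27.3 to 32.2 and 13.6 to 16.5 CPM in the same order. For both genes B6 was highest in every library, and D2-13B6 did not overlap with any other group. D2-13B6 minus B6 was -1.34 ± 0.06 for Pelo and -1.33 ± 0.08 for Cetn3 (edgeR adjusted p 1.52e-12 and 3.69e-10).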
